A study of Mus musculus with 6 samples.

Results

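The immunoglobulin genes encode the heavy and light chains of antibodies and of the B cell receptor, and here they are described in natural killer (NK) cells sorted from mouse thymus. The members are the gene segments and constant regions of the heavy chain locus (V, D and J segments and the constant regions Ighm, Ighd, Ighg, Ighe and Igha), of the kappa locus (Igkv, Igkj, Igkc) and of the lambda locus (Iglv, Iglj, Iglc), with Jchain. They were chosen by measured values to the extent that a member needed at least 1 count over all 6 libraries. Of 261 such genes among the 26332 genes of the count table, 161 had a count and are the members, and 100 were at 0 counts in every library. At the edge of the rule, 11 members held a single count in all 6 libraries together, and the genes just outside it held none.

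RNA-seq of 6 libraries compared 4 wild-type (WT) C57BL/6 mice, 2 male and 2 female, with 2 C57BL/6 mice carrying a Tcf7 knock-out (KO), 1 male (KO 1) and 1 female (KO 2). Its protein, TCF-1, is a transcription factor of T cell and innate lymphoid development. Each library came from an individual mouse, and the sort took NK1.1+ NKp46+ cells lacking TCRbeta, CD3, CD8 and CD1d-tetramer binding. The gate as labelled lists no B cell marker. The Tcf7 allele, the ages of the mice and whether the WT mice were littermates were not given in the sources used here. With 1 KO mouse of each sex, a difference between KO 1 and KO 2 cannot be told apart from one between the sexes.

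An antibody heavy chain gene is assembled in developing B cells by joining 1 V, 1 D and 1 J segment, and a light chain gene by joining 1 V and 1 J segment. RNA of an assembled gene carries the V segment spliced to a constant region, Ighm and Ighd first and, after class switching, a gamma, alpha or epsilon constant region. Unrearranged constant regions and V segments can also be transcribed as germline RNA, so Ighm RNA occurs in lymphocytes that make no antibody. Jchain encodes the joining chain that links IgM pentamers and IgA dimers. A B cell and its descendants share their assembled V segments, and a mixed B cell population holds many.

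The V and J segments that the results turn on are shown first. For each V segment the last 120 bases of its second exon are given 5′ to 3′ on the coding strand of GRCm38 (mm10), and the capitals mark the tyrosine-tyrosine-cysteine or tyrosine-phenylalanine-cysteine codons that stand before the third complementarity-determining region. Ighv2-9 (chr12:113879096-113879215, minus strand) and Iglv1 (chr16:19085017-19085136, minus strand) held most heavy and lambda V counts in KO 1. Ighv13-2 (chr12:114357759-114357878, minus strand) and Igkv3-12 (chr6:70518730-70518849, plus strand) held most heavy and kappa V counts in KO 2. Igkv14-111 (chr6:68256750-68256869, plus strand) led the kappa V counts of every WT library. These are germline sequences of the reference annotation, GENCODE M21, and were not read from these libraries.
Ighv2-9: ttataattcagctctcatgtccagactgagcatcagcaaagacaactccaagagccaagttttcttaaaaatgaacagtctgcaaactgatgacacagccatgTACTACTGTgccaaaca
Ighv13-2: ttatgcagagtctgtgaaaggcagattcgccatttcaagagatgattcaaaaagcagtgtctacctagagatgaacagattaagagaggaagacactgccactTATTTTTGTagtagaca
Iglv1: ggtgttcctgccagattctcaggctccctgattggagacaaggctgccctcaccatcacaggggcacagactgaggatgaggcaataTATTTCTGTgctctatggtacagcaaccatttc
Igkv3-12: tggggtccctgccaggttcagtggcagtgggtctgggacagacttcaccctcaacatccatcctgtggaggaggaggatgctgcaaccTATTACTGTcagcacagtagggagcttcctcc
Igkv14-111: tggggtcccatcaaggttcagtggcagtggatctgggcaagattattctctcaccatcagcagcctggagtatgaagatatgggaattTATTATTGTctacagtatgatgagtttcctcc

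The 3 heavy J segments with the most counts and the best covered kappa and lambda J segments are shown whole, because counts on them mark the joined end of a V region, or its unjoined precursor. The capitals mark the codons of the tryptophan or phenylalanine and the glycine-X-glycine that follow that region. Ighj3 lies at chr12:113429085-113429132, Ighj4 at chr12:113428514-113428567 and Ighj1 at chr12:113429781-113429833, all on the minus strand. Igkj2 lies at chr6:70722916-70722954 on the plus strand and Iglj1 at chr16:19063225-19063262 on the minus strand.
Ighj3: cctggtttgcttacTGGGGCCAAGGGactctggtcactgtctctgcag
Ighj4: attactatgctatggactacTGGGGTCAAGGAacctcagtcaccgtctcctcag
Ighj1: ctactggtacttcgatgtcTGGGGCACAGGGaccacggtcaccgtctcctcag
Igkj2: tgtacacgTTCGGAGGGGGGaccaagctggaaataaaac
Iglj1: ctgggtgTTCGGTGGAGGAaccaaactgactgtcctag

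Library totals were 16418910 to 31155303 counts, and 14241 to 15861 genes had a count. Levels are CPM, counts relative to the size of the library, scaled by the trimmed mean of M-values (TMM), and 3 counts, the limit that a count of 0 allows, equalled 0.0963 to 0.183 CPM before that scaling. Tcf7 stood at 943, 947, 811 and 880 CPM in WT 1 to WT 4 and at 268 and 452 CPM in KO 1 and KO 2, lower in both KO libraries. Counts of libraries within a group varied beyond counting error, with a chi-square per degree of freedom of 8.86 to 62.2 over pairs. WT 4 held more T cell, B cell and early lymphoid RNA than the other WT libraries for several markers, among them Cd4 at 15.6 CPM against 0.162 to 2.97 CPM.

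Immunoglobulin RNA was more abundant in both Tcf7 KO libraries, and more of its genes had a count. The members summed to 397, 423, 393 and 440 CPM in WT 1 to WT 4 and to 926 and 710 CPM in KO 1 and KO 2. Without Ighm the sums were 27.1, 32.3, 33.5 and 34.4 CPM in WT against 569 and 346 CPM in KO. The KO libraries lay above all WT libraries on both sums, and the ratio of the group means was 1.98 with Ighm and 14.4 without it. Ighm alone made up 91.5 to 93.2% of the member counts in WT, but 38.5% in KO 1 and 51.3% in KO 2. In bulk RNA, more cells of a type and more RNA per cell cannot be told apart.

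The number of members with any count was 21, 34, 31 and 60 in WT 1 to WT 4 and 105 and 90 in KO 1 and KO 2. Both KO libraries exceeded the WT range for 41 of the 161 members (25.5%), against 17.1% of the 17764 genes with a count. A member at 0 in every WT library exceeds that range with a single count in each KO library. The 41 are therefore not a share to be read against the other genes. No member had both KO libraries below the WT range, against 15% of those genes, but a gene at 0 in a WT library cannot fall below that range. The 41 comprised 16 heavy V segments, 15 kappa V or J segments, 3 heavy constant regions, 3 lambda V or J segments, Ighj3, Igkc, Iglc1 and Jchain.

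Genotypes were compared gene by gene with edgeR's quasi-likelihood test, with sex as a covariate, over the 13652 genes that passed a filter on low counts. A gene is called at a Benjamini-Hochberg adjusted p under 0.05 over all genes tested, and 13.7% were called, 8.13% higher and 5.58% lower in KO. Of the 161 members, 30 passed the filter, 11 of them were called higher and none lower. At an unadjusted p under 0.05, 21 members were higher and 0 lower, against 16% and 13.2% of all genes tested. A member that is near 0 in WT passed the filter through its KO counts, so neither count is a share of the 30 to be read against the other genes. The called members were Igha, Igkv3-12, Jchain, Ighv13-2, Igkc, Iglv1, Ighv2-9, Ighg2b, Igkv6-17, Iglc1 and Ighv5-17.

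Ighm, the mu constant region of IgM (chromosome 12, 113418826 to 113422730), was the most abundant member and was not called. It measured 370, 391, 359 and 406 CPM in WT 1 to WT 4, and 356 and 364 CPM in KO 1 and KO 2. The WT mean was 381 CPM with an SD of 21 CPM over 4 libraries. The KO mean was 360 CPM with an SD of 5.45 CPM over 2 libraries, and the groups overlapped. The log2 fold change of KO over WT was -0.08 ± 0.09 (SE) (edgeR adjusted p = 0.581). With scaling by library size alone the value was 0.0029, on the other side of 0.

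Ighd, the delta constant region of IgD that is spliced from the same transcripts as Ighm, measured 20.3, 21.9, 21.8 and 16.1 CPM in WT and 34.1 and 20.7 CPM in KO. KO 1 was the highest library and KO 2 lay within the WT range. The log2 fold change was 0.42 ± 0.20 (SE), not called (edgeR adjusted p = 0.202).

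Igha, the alpha constant region of IgA (chromosome 12, 113256204 to 113260236), rose in both KO libraries. It measured 1.74, 2.57, 2.40 and 3.43 CPM in WT 1 to WT 4 and 182 and 121 CPM in KO 1 and KO 2, from 40 to 85 counts in each WT library and 3137 and 3255 counts in the KO libraries. The KO mean of 151 ± 43.1 CPM (SD, n = 2) was 59.7 times the WT mean of 2.54 ± 0.696 CPM (SD, n = 4), with no overlap. The log2 fold change was 5.89 ± 0.26 (SE), called at an edgeR adjusted p of 9.4e-05, and it ranged from 5.33 to 6.47 with a call in every one of the 14 alternative analyses.

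Jchain (chromosome 5, 88519809 to 88527897) lies outside the immunoglobulin loci and rose alongside Igha. It measured 0.324, 0.461, 0.060 and 0.363 CPM in WT and 41.7 and 28.6 CPM in KO, with 719 and 770 counts in the KO libraries and at most 14 in a WT library. As for Igha, KO 1 was the higher of the KO libraries. The log2 fold change was 6.74 ± 0.41 (SE) at an edgeR adjusted p of 2.06e-04, and the call held in all 14 alternatives.

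The gamma constant regions, which encode the IgG subclasses, stayed low. Ighg2b measured 0, 0.362, 0 and 0.565 CPM in WT and 2.38 and 7.98 CPM in KO, the highest in KO 2. Its log2 fold change of 5.12 ± 0.84 (SE) was called (edgeR adjusted p = 0.0083), and without KO 2 it was not, at a larger fold change of 8.75 (adjusted p = 0.054). Ighg3 measured 0.202, 0, 0.180 and 0.404 CPM in WT and 1.62 and 1.52 CPM in KO, which did not overlap, and it was not called (edgeR adjusted p = 0.131). Ighg2c held 5 counts over all libraries, while Ighg1 and Ighe, the epsilon constant region of IgE, had none.

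**Figure D1:**
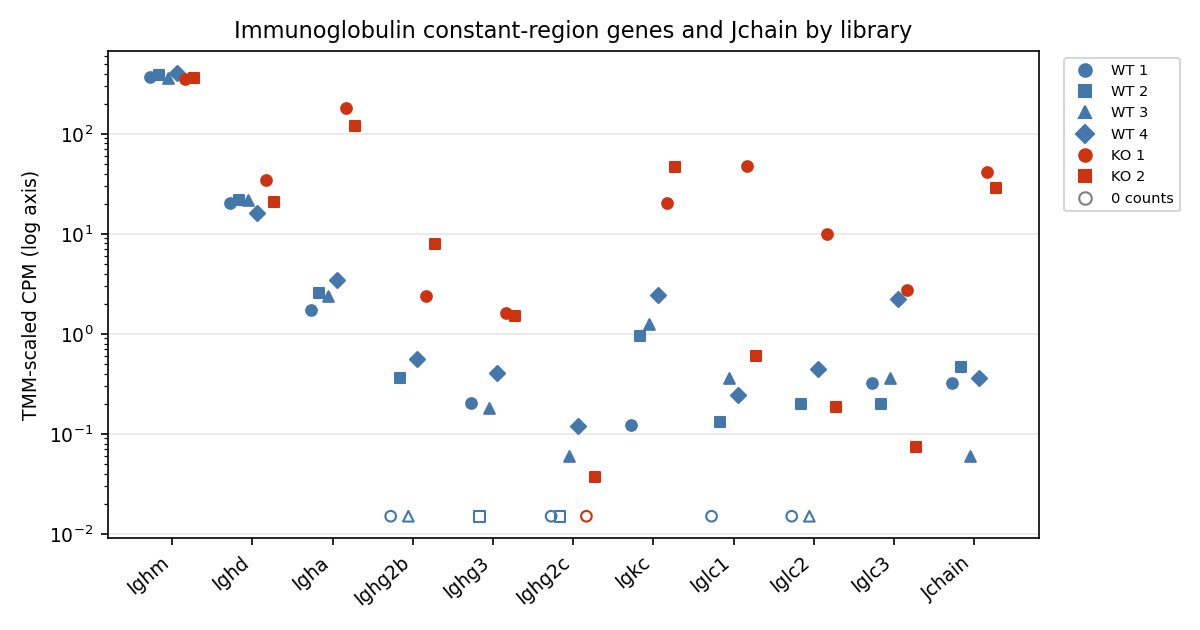
Constant region genes and Jchain by library, in TMM-scaled CPM on a log axis, with 1 point for each of the 4 WT (blue) and 2 KO (red) libraries and open points for 0 counts. Ighm lies between 356 and 406 CPM in all 6 libraries, whereas Igha, Jchain and Igkc are higher in both KO libraries and Iglc1 stands at 47.8 CPM in KO 1 alone.

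Compared per length, since the constant regions differ in size, the make-up of heavy constant RNA shifted toward Igha in both KO libraries. CPM was divided by the gene length in kilobases given in the count table. Ighm made up 92.0, 91.6, 91.0 and 93.3% of the length-scaled heavy constant level in WT and 56.3 and 65.8% in KO. Igha made up 0.527, 0.733, 0.740 and 0.959% in WT and 34.9 and 26.6% in KO. The Ighd share was 5.47 to 8.18% in WT and 7.97 and 5.54% in KO. The Igha share was thus higher in both KO libraries while the Ighd share overlapped between the groups.

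Igkc, the only kappa constant region (chromosome 6, 70726435 to 70726754), rose in both KO libraries. It measured 0.121, 0.956, 1.26 and 2.42 CPM in WT 1 to WT 4 and 20.3 and 47.0 CPM in KO 1 and KO 2. KO 2 was the highest, the reverse of the order for Igha and Jchain. The KO mean was 28.3 times the WT mean, with a log2 fold change of 4.90 ± 0.57 (SE) and an edgeR adjusted p of 0.0022, and the call held in all 14 alternatives with a highest adjusted p of 0.034.

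Iglc1, the lambda constant region commonly used with Iglv1 (chromosome 16, 19061752 to 19062071), was high in 1 KO library. It measured 0, 0.132, 0.360 and 0.242 CPM in WT, 47.8 CPM in KO 1 and 0.594 CPM in KO 2, from 825 and 16 counts in the KO libraries. The fit called it (edgeR adjusted p = 0.0299), yet without KO 1 the log2 fold change dropped to 1.65 with an adjusted p of 0.686. It was also lost without WT 1 (adjusted p = 0.083) or WT 3 (adjusted p = 0.142). Iglc2 measured 9.96 CPM in KO 1 and 0.186 CPM in KO 2, and Iglc3 2.72 and 0.074 CPM. Neither was called by the main fit (edgeR adjusted p = 0.202 and 0.792). DESeq2 called Iglc2 higher (adjusted p = 0.0167), and without KO 2 the edgeR log2 fold change of Iglc2 was 10.8. Iglc2 and Iglc3 are 96.5% identical in the bases aligned, so reads could be split or dropped between them, whereas Iglc1 is 76.2% and 77.2% identical to them.

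The light chain make-up therefore differed between the KO libraries. Per length, Igkc made up 25.1% of light constant RNA in KO 1 and 98.2% in KO 2, and Iglc1 59.1% and 1.24%. In WT the Igkc share was 27.1, 64.3, 63.5 and 45.2%, based on few counts. Set beside the V segments on the same scale, Igha measured 148 and Ighv2-9 243 CPM per kb in KO 1, and Igha measured 98.6 and Ighv13-2 155 CPM per kb in KO 2. Jchain, at 19.8 and 13.6 CPM per kb, was lower than both in each library.

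**Figure D2:**
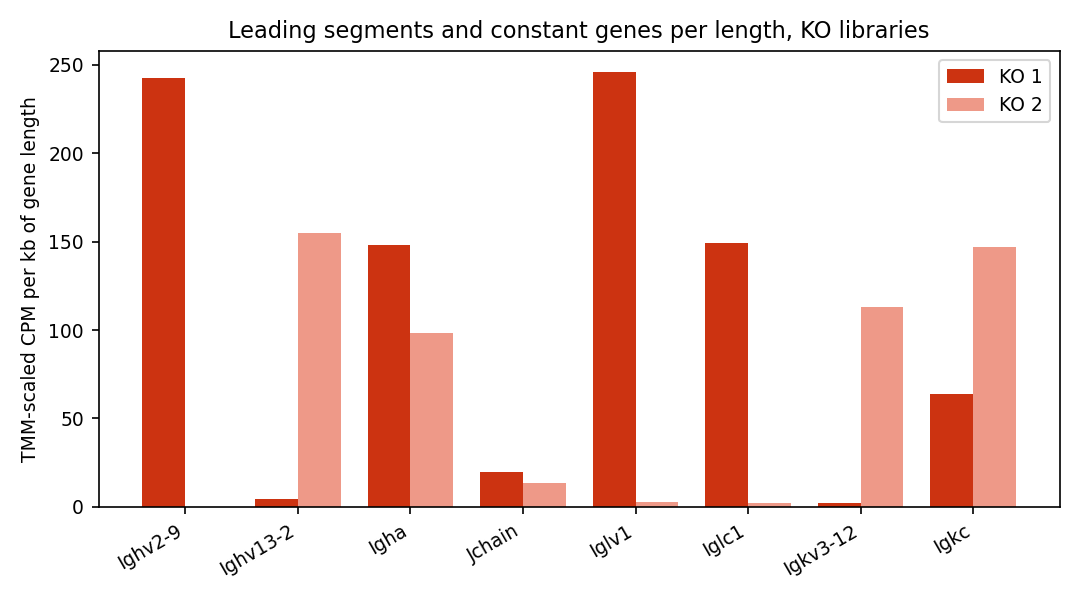
Levels per length of leading V segments, Igha, Igkc, Iglc1 and Jchain in KO 1 (dark bars) and KO 2 (light bars), 1 library each, as TMM-scaled CPM divided by gene length in kilobases. Ighv2-9 (243) and Iglv1 (246) are the highest bars of KO 1, and Ighv13-2 (155) and Igkc (147) those of KO 2. Ighm, which is not drawn, measured 239 in KO 1 and 244 in KO 2.

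V segments encode most of the antigen-binding domain. They summed to 3.76, 5.40, 6.96 and 7.47 CPM in WT 1 to WT 4 and to 219 and 116 CPM in KO 1 and KO 2, from 93 to 185 counts in each WT library and 3773 and 3131 counts in the KO libraries. Of 226 V segments listed, 138 had a count somewhere. Segments with a count numbered 12, 24, 22 and 44 in WT and 85 and 71 in KO. Thinned to the total count of KO 1, the shallowest library, the expected numbers were 11.1, 21.3, 21.9 and 39.4 in WT and 85.0 and 65.8 in KO. Brought instead to the 93 V counts of WT 1, a comparison added after the values were seen, the expected numbers were 12, 21.8, 20.7 and 35.9 in WT and 22.0 and 18.1 in KO. At equal V counts the KO libraries thus lay within the WT range.

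Overlap of V segments was counted as found, not at equal V counts and without the same count over all genes. The WT libraries held 93 to 185 V counts, and KO 1 and KO 2 held 3773 and 3131. How far few counts account for segments absent from a library was not tested. Both KO libraries held a count for 39 segments, KO 1 alone of the pair for 46 and KO 2 alone for 32. A KO library but no WT library held 68 segments, a WT library but no KO library 21, and all 6 libraries 3. A single library accounted for 68 segments. The 5 segments that reached 100 counts in a library were Ighv2-9, Iglv1, Ighv13-2, Igkv3-12 and Igkv6-17, and each reached it in 1 KO library.

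Ighv2-9 was the leading heavy V segment of KO 1. It held 0, 0, 9 and 0 counts in WT 1 to WT 4, 1223 in KO 1 and 0 in KO 2, which is 70.9 CPM in KO 1. It made up 71.2% of the 1718 heavy V counts of KO 1 (95% Wilson interval 69.0 to 73.3%, counting error only), and the next segment, Ighv6-3, had 61 counts. The fit called it higher in KO (edgeR adjusted p = 0.0064) although KO 2 had no count, and DESeq2 did not call it (adjusted p = 0.309). The called difference therefore describes KO 1 and not both KO mice.

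Ighv13-2 was the leading heavy V segment of KO 2. It held no count in any WT library, 22 in KO 1 and 1254 in KO 2, or 1.27 and 46.5 CPM. Against 3 counts in the shallowest WT library (0.180 CPM), KO 1 was at least 7.09-fold higher and KO 2 at least 259-fold higher. It made up 75.0% of the 1671 heavy V counts of KO 2 (95% Wilson interval 72.9 to 77.1%). It was called (edgeR adjusted p = 0.0012), but not without KO 2 (adjusted p = 0.168).

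The remaining heavy V segments were spread over many genes. Ighv5-17, at 0, 0, 0 and 1 counts in WT and 19 and 15 counts in KO, was called at an edgeR adjusted p of 0.0373 and lost that call in 8 of the alternatives that tested it. Ighv6-3 measured 0.162, 0.165, 0.660 and 0.242 CPM in WT and 3.53 and 0.408 CPM in KO, and was not called (edgeR adjusted p = 0.167). Ighv9-3, chosen after its values were seen, held 2 counts in WT 4, 5 in KO 1 and 93 in KO 2, and did not pass the filter. Ighv1-23 led the heavy V counts of WT 1 with 19 of 54 and held 0 and 2 counts in the KO libraries.

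Along the heavy chain locus the leading segments lay apart. Counted from the J end, Ighv2-9 was the 19th of 120 V segments at 449 kb, Ighv9-3 the 31st at 711 kb and Ighv13-2 the 41st at 928 kb. The farthest V segment lay at 2580 kb. Ighv2-9 and Ighv13-2 are 72.8% identical over the bases aligned.

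Near copies within the V families held few counts beside the leading segments. Ighv2-6-8, the segment most like Ighv2-9 at 96.1% identity, had 7 counts in KO 1, and Ighv2-3 at 95.3% had 11. The closest relative of Ighv13-2, Ighv6-3 at 80.6%, had 11 counts in KO 2. Iglv2, 97.0% identical to Iglv1, had 65 counts in KO 1, and Igkv3-7, 96.8% identical to Igkv3-12, had 20 in KO 2. Counts of such pairs may be split between copies and are uncertain at that level.

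Igkv3-12 was the leading kappa V segment of KO 2. It held 0, 0, 0 and 1 counts in WT, 14 in KO 1 and 1095 in KO 2, or 0.811 and 40.6 CPM in the KO libraries. It made up 77.6% of the 1411 kappa V counts of KO 2 (95% Wilson interval 75.4 to 79.7%). It was called at an edgeR adjusted p of 1.35e-04, and not without KO 2 (adjusted p = 0.195). Igkv6-17, the next in KO 2, held no count in WT, 9 in KO 1 and 109 in KO 2. Its call (edgeR adjusted p = 0.0264) was lost with DESeq2 (adjusted p = 0.164).

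No kappa V segment dominated KO 1. Its 442 kappa V counts were spread over 43 segments, led by Igkv1-110 with 11.1% (95% Wilson interval 8.49 to 14.4%). Igkv14-111, which led all 4 WT libraries, measured 1.01, 1.45, 1.26 and 0.969 CPM in WT and 2.26 and 0.482 CPM in KO. The KO libraries lay on either side of the WT range and the edgeR adjusted p was 0.999.

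Iglv1 was the leading light chain V segment of KO 1, as Iglc1 was its leading lambda constant region. It held 0, 0, 10 and 4 counts in WT, 1489 in KO 1 and 25 in KO 2, or 86.3 and 0.928 CPM in the KO libraries. It made up 92.3% of the 1613 lambda V counts of KO 1 (95% Wilson interval 90.9 to 93.5%) and 25 of 49 in KO 2. It was called (edgeR adjusted p = 0.0046), but not without KO 1 (adjusted p = 0.441) or with DESeq2 (adjusted p = 0.058). Iglv2 and Iglv3, at 3.77 and 3.42 CPM in KO 1 and 0.445 CPM each in KO 2, were not called (edgeR adjusted p = 0.149 and 0.176).

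**Figure D3:**
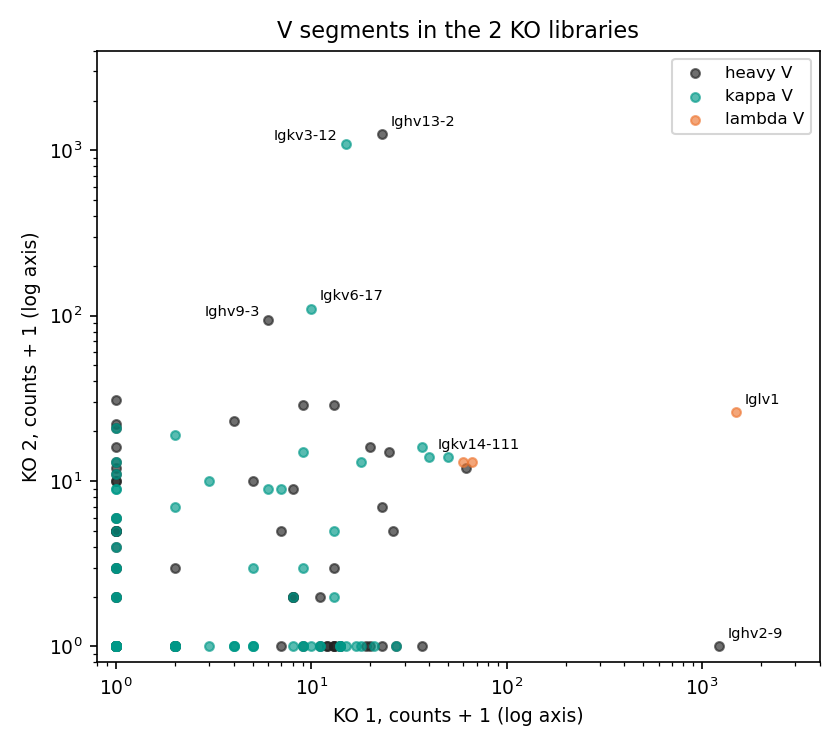
V segments in KO 1 (horizontal) and KO 2 (vertical), as counts plus 1 on log axes, coloured by locus. Ighv2-9 and Iglv1 lie far to the right and Ighv13-2 and Igkv3-12 far up, and no segment reaches 100 counts in both libraries.

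**Figure D4:**
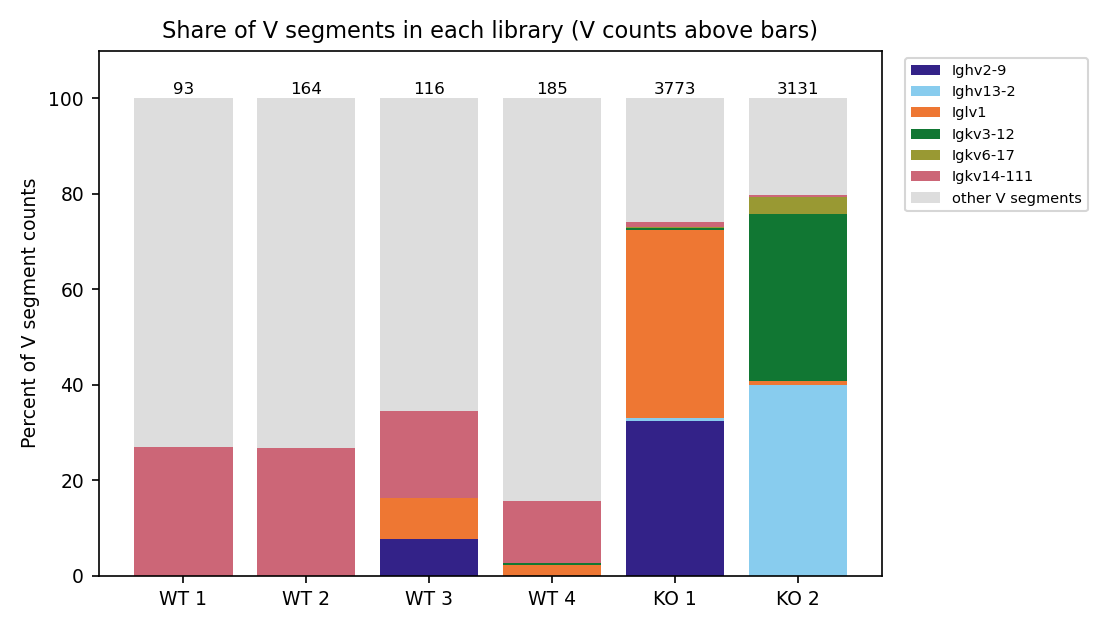
Share of the V counts held by the leading segments in each library, in percent of all V counts. Igkv14-111 holds 13.0 to 26.9% in WT, whereas Iglv1 leads KO 1 with 39.5% and Ighv13-2 leads KO 2 with 40.1%.

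The evenness of V counts can be given as the inverse Simpson number, the number of equally used segments that would give the same concentration. For heavy V segments it was 4.75, 13.7, 8.50 and 12.8 in WT and 1.96 and 1.76 in KO. For all V segments it was 6.43, 9.12, 12.2 and 20.8 in WT and 3.81 and 3.50 in KO. Both KO libraries lay below all WT libraries on these numbers, and the WT numbers for all V rest on 93 to 185 counts each. For kappa V segments it was 2.08, 3.18, 2.75 and 7.69 in WT, 21.2 in KO 1 and 1.64 in KO 2. There KO 1 lay above all WT libraries and KO 2 below them.

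J and D segments are short and held few counts. Ighj3 held 0, 0, 0 and 5 counts in WT and 91 and 22 in KO, or 5.27 and 0.816 CPM in the KO libraries, and was not called (edgeR adjusted p = 0.057). Ighj4 had 5 counts in WT 1, 18 in KO 1 and 2 in KO 2, Ighj1 had 3 and 6 in WT 1 and WT 4 and 15 in KO 2, and Ighj2 had 2 in KO 2. Ighj3 was thus the most counted heavy J segment in both KO libraries. Iglj1 held 14 counts in KO 1 and none in KO 2, and Igkj2 held 3 and 12. The only D segment with counts, Ighd2-4, had 2 in KO 1.

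No test here can decide whether KO 1 and KO 2 differ. A genotype-by-sex term was tried after the values were seen. It has 1 KO library of each sex and takes its spread from the WT libraries alone. Many members, such as Ighv2-9, are at or near 0 there, so its outcome is not used. The different leading V segments of the KO libraries are given as a description.

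Genes of B cells were higher in the same libraries. The B cell list covers the antigen receptor partners Cd79a and Cd79b, the inhibitory coreceptor Cd22, the transcription factors Pax5 and Ebf1 and other B lineage genes. All 18 of its genes were tested, 10 were called higher and 1 lower, and 13 had both KO libraries above the WT range. Of all genes tested, 8.13% were called higher and 5.58% lower, and 17.1% of genes with a count lay above that range. Listed genes near 0 in WT, such as Blk, passed the filter through their KO counts and exceed a WT range near 0 easily. The list's counts are therefore not shares to be read against those of all genes. The list's median log2 change stood at 3.68, beside 0.02 over all genes tested, and its summed level was 108 to 139 CPM in WT and 400 and 180 CPM in KO. The part of the listed genes in the immunoglobulin result was not tested.

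Blk, a B cell kinase, measured 0.162, 0.231, 0.180 and 0.363 CPM in WT and 15.7 and 6.53 CPM in KO (log2 fold change 5.45, edgeR adjusted p = 0.0011). Ms4a1, which encodes CD20, measured 0, 0.165, 0 and 1.57 CPM in WT and 44.2 and 9.72 CPM in KO (log2 fold change 6.11, edgeR adjusted p = 0.0230). KO 1 was the higher of the KO libraries for both. Cd72, an inhibitory coreceptor and the most abundant gene of the list, fell, from 76.1 to 96.8 CPM in WT to 63.2 and 55.8 CPM in KO (log2 fold change -0.53, edgeR adjusted p = 0.0318). Cd22 measured 4.61 to 11.2 CPM in WT and 49.0 and 9.02 CPM in KO (edgeR adjusted p = 0.0491), with KO 2 inside the WT range.

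The plasma cell list holds genes of antibody-secreting cells. Of 12 listed, 10 were tested and 2 were called, both higher, against 8.13% of all genes tested. The median log2 change of the list was 0.46. Xbp1, a transcription factor of the secretory programme, rose from a WT mean of 93.8 ± 5.38 CPM (SD, n = 4) to 125 and 153 CPM in KO (log2 fold change 0.56, edgeR adjusted p = 0.0198). Mzb1, a chaperone for immunoglobulin assembly, rose from 0.162, 0, 0 and 1.86 CPM in WT to 7.59 and 10.4 CPM in KO (edgeR adjusted p = 0.0499). Sdc1, which encodes CD138, measured 0 to 1.21 CPM in WT and 1.22 and 4.82 CPM in KO, Tnfrsf17, which encodes BCMA, was at 0 except for 0.371 CPM in KO 2, and Fkbp11 and Derl3 stayed at or below 1.45 CPM. Edem1, the most abundant gene of the list, measured 144 to 170 CPM in WT and 174 and 231 CPM in KO (edgeR adjusted p = 0.060). The summed level, to which Edem1 and Xbp1 contributed most, was 366 to 431 CPM in WT and 454 and 544 CPM in KO. The part of the list in the result was not tested.

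**Figure D5:**
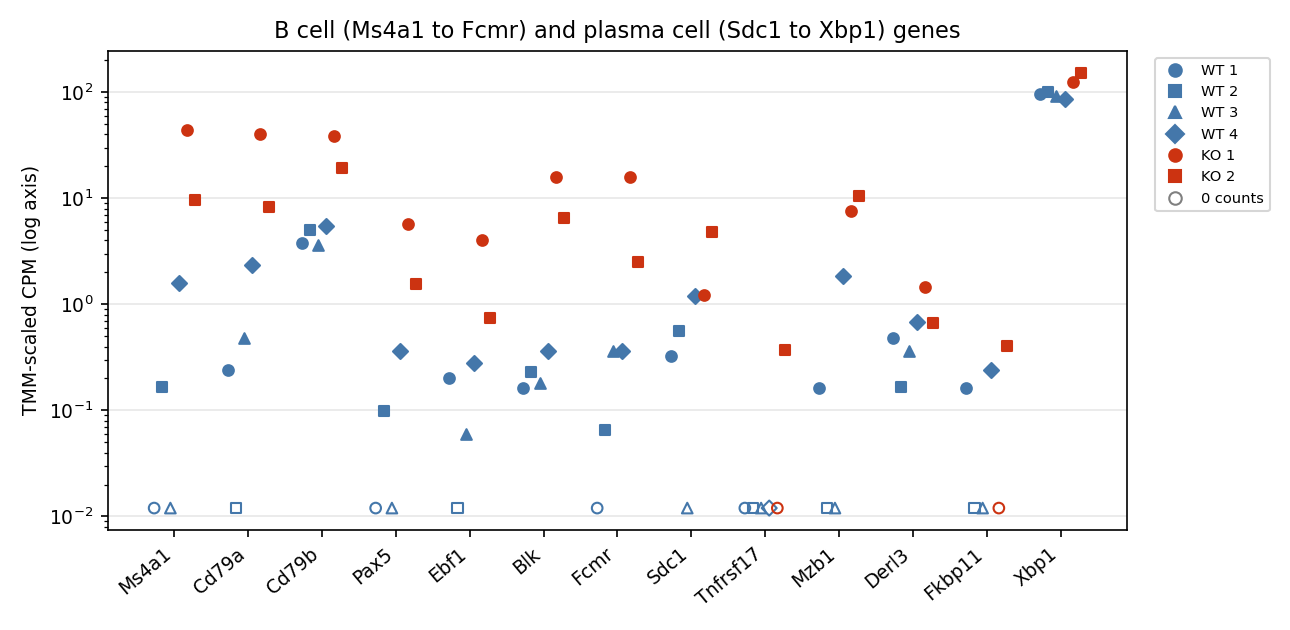
B cell genes (Ms4a1 to Fcmr) and plasma cell genes (Sdc1 to Xbp1) by library, in TMM-scaled CPM on a log axis, with open points for 0 counts. The genes drawn are a selection from each list. The B cell genes drawn stand highest in KO 1, which does not hold for the whole list, as Cd72 and Spib, not drawn, are highest elsewhere. Mzb1 reaches 7.59 and 10.4 CPM in the KO libraries, and Tnfrsf17 and Fkbp11 stay at or near 0. Prdm1, Ell2 and Creld2 of the plasma cell list are not drawn and were not called.

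Class switching and somatic mutation genes were not called in either direction among the 9 tested of 10 listed, at a median log2 fold change of 0.33. Of the early B cell and recombination genes, 8 of 10 were tested and 1, Rbm47, was called higher, against 8.13% of all genes tested. Rag1, a subunit of the V(D)J recombinase, measured 4.25, 11.2, 10.4 and 62.3 CPM in WT and 20.2 and 322 CPM in KO (edgeR adjusted p = 0.0514), so that KO 1 lay below WT 4.

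Of 16 regulators of immunoglobulin genes, 2 were called higher and 2 lower, against 8.13% and 5.58% of all genes tested. Their median log2 change was 0.02, as over all genes tested. Ikzf1, an Ikaros family factor, fell from 1096 to 1166 CPM in WT to 821 and 726 CPM in KO (log2 fold change -0.55, edgeR adjusted p = 0.0066). Tcf4, the E protein E2-2, fell from 62.6 to 81.8 CPM to 29.6 and 39.5 CPM (edgeR adjusted p = 0.0091). Spi1, which encodes PU.1, rose from 0.300 to 2.66 CPM to 6.78 and 12.5 CPM (edgeR adjusted p = 0.0131), and Pax5 rose to 5.68 and 1.56 CPM (edgeR adjusted p = 0.0452).

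Among genes for immunoglobulin assembly and secretion, 2 of 12 tested were called higher and none lower. Over all genes tested these shares were 8.13% and 5.58%. Hsp90b1, an endoplasmic reticulum chaperone, rose from 650 to 703 CPM to 815 and 879 CPM (edgeR adjusted p = 0.0431), and Mzb1 was the other. Of the Fc receptors, 3 of 8 tested, Fcgr4, Fcmr and Fcer2a, were called higher and none lower. Fcmr and Fcer2a are also on the B cell list. Fcer1g, the shared signalling chain, measured 584 to 659 CPM in WT and 431 and 582 CPM in KO (edgeR adjusted p = 0.139). Pigr, the transporter of dimeric IgA across epithelium, was at 0 in all libraries.

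Of the 16 listed non-immunoglobulin genes that flank the loci, 13 were tested and 0 were called, against 13.7% of all genes tested. The list's median log2 change was -0.09, and 0 of the 16 had both KO libraries above the WT range. Tmem121 split the KO libraries, at 0.695 CPM in KO 1 and 12.3 CPM in KO 2, against 3.95 to 5.89 CPM in WT (edgeR adjusted p = 0.956). Mta1 measured 107 to 115 CPM in WT and 79.1 and 93.2 CPM in KO (edgeR adjusted p = 0.061). Crip1, beside the heavy chain locus, measured 147 to 165 CPM in WT and 143 and 153 CPM in KO (edgeR adjusted p = 0.734).

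Markers of other cell types are set beside the shares of all genes tested, 8.13% called higher and 5.58% called lower. As for the members, a listed gene near 0 in WT passed the filter through its KO counts. Elane, a myeloid marker, held 0 counts in every WT library and measured 6.20 and 24.6 CPM in KO. The counts called in this and the preceding lists are therefore not shares to be read against all genes. T cell markers were called higher for 7 of 13 tested, with summed levels of 580 to 819 CPM in WT and 1922 and 2419 CPM in KO. Myeloid markers were called higher for 3 of 12 and thymic stroma markers for 4 of 7, and the erythroid markers were not called. The NK list summed to 16094 to 16836 CPM in WT and to 17218 and 14414 CPM in KO, with 1 of 13 called higher and 3 lower. Of the plasmacytoid dendritic cell list, 1 of 9 tested was called higher and 2 lower. These lists were not tested as sources of the immunoglobulin RNA.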

How the data were processed

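RNA of NK cells sorted from 6 individual thymi was amplified (SMART-Seq v4, low input) and sequenced in paired-end mode, per the labels' protocols. The deposited values are raw counts per Entrez gene. The authors used featureCounts and the mm10 build, per the submitters' processing notes. The aligner, the versions and the treatment of multi-mapped reads are not given in the sources. The 6 sample files held the same counts as the series table. Amplification without molecular identifiers means that intervals and limits cover counting error only, and reads of near-identical segments may be split or dropped.

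Of 26332 gene IDs, 25275 matched a symbol in RefSeq (GRCm38.p6), which also gave gene positions. Segment sequences came from GENCODE M21, in which 160 of 161 members were found. Counts were scaled by TMM and tested with edgeR 4.0.16 in R 4.3.3 (quasi-likelihood, default expression filter, sex as covariate, Benjamini-Hochberg over all genes tested, called under 0.05). The fit had 3 residual degrees of freedom. It was also run on simulated counts with the same dispersion for every gene and no sex effect. That run did not cover genes at 0 in WT and high in a single KO library. Standard errors were the log2 fold change divided by the root of F. DESeq2 1.42.0, limma 3.58.1 (voom), other scalings and filters, no sex term, a replicate block and leaving out each library were alternatives. Sums by class add a pseudocount of 0.1 CPM before the log2.

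The members and lists were chosen with earlier results of these data known. Named members are every constant region and Jchain, the 3 segments of each class with the highest mean CPM, and every called member. In each other list the rule picked up to 2 called genes of largest change and the 2 most abundant. Not all of these are reported, and some other listed genes are. A planned search for genes following the member sum was left out because the 6 libraries fall into 2 groups. The planned permutation p of the class sums was left out because the members were chosen with results known. Some listed genes are not reported by name here.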

Additional observations from a re-analysis of the deposited data

Results flagged for a closer look

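Among the 52 sets of 4 WT values examined, 9 held a library set far apart from the other 3. Chance flags about 1 in 20 groups of continuous values, a rate that does not hold where 3 libraries are at 0 and any count sets the other apart, as for Ighv2-9, Igkv3-12, Ighj3, Iglv3, Ighv5-17 and Igkv4-91. All 9 were the highest library of their set. WT 3 stood apart for Ighv2-9 at 0.540 CPM, with the other WT libraries at 0, and for Ighv6-3 at 0.660 CPM. WT 4 stood apart for Iglc3 at 2.22 CPM, Iglv3 at 0.363 CPM, Ighj3 at 0.202 CPM and Igkv4-91 at 0.081 CPM. It also stood apart for Igkv3-12 and Ighv5-17, each at 0.040 CPM from a single count. The summed level of the plasmacytoid dendritic cell list was 367 CPM in WT 4 against 281 to 294 CPM in the other WT libraries.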

How the results depend on the processing

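Igha, Jchain and Igkc were called in all 14 alternatives, whereas the other 8 called members each lost the call in at least 1. The members called numbered 11, against 3 when 5 CPM were required in 2 libraries, 17 with limma voom and 7 to 13 when a library was left out, with 7 without KO 1 and 7 without KO 2. All genes called numbered 1872, against 2955 with DESeq2 and 934 to 1908 when a library was left out. Over the alternatives for single named members, 182 values kept direction and call, 19 lost the call, 2 gained one and 5 turned direction. The reversals were Ighm by library size alone (0.0029), Iglc3 without WT 1 (-0.44), without WT 3 (-0.31) and without KO 1 (-3.93), and Iglc2 without KO 1 (-0.77). Iglc3 ranged from -3.93 to 2.97 for leave-one-out, and the cause was not tested.

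On the log2 scale the summed levels differed between KO and WT by 0.97 for all members (0.78 to 1.16 when a library was left out), 0.43 for heavy constant regions (0.35 to 0.51), 4.75 for heavy V (4.41 to 5.09), 3.89 for heavy D and J (2.89 to 4.90), 5.04 for Igkc (4.34 to 5.64 for leave-one-out), 3.85 for kappa V and J (3.35 to 4.35), 4.18 for lambda (1.29 to 7.07) and 6.57 for Jchain (6.17 to 6.84). Without the most abundant member they were 3.80, 2.98, 3.91, 2.37 and 2.79 for all members, heavy constant, heavy V, heavy D and J, and kappa V and J. A pseudocount of 1 gave 1.88 for heavy D and J and 4.78 for Jchain. V segments with at least 3 counts numbered 14 in WT 3 and 24 in WT 4, and with at least 10 counts 4, 3, 4 and 3 in WT and 43 and 29 in KO.

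The labels number the replicates without stating that a number pairs mice. Deviations of same-numbered libraries from their group means correlated at r = 0.128 for number 1 and 0.000 for number 2 across genes. With a replicate block in place of sex, 1341 genes and 10 members were called, and the summed difference of all members was 0.98. Igkv6-17 (adjusted p = 0.058) and Ighv5-17 (adjusted p = 0.170) lost their calls and Ighj3 gained one (adjusted p = 0.040). The WT libraries limit what can be said of segment use, since each held 93 to 185 V counts, and 2 KO libraries of different sex leave no replicate of either.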
